A study of Mus musculus with 11 samples.

Results

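The genes described here are 10 transcription factors of the endothelial lineage, whose transcripts were measured in sinusoidal endothelium of the liver (LSEC), a cell layer with open pores that bounds the blood channels between plates of hepatocytes. They are Gata4, Gata2, Tbx20, Maf, Erg, Fli1, Sox7, Sox17, Sox18 and Tal1. Each symbol was looked up in the platform annotation, and the brightest transcript cluster over all arrays was to be taken where a symbol had several. All 10 symbols were found with 1 cluster each, among the 22206 clusters that were tested. The symbols were selected on their known role and on measured values of these arrays, namely brightness and, for Tbx20 at least, the difference between genotypes. Their genotype differences are therefore a description, and no test is drawn from them.

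The tested mice were Atg5lox/lox;VE-cadherin-Cre (knockout, titled autophagy deficient, 5 arrays), in which a Cre recombinase driven by the VE-cadherin promoter deletes floxed Atg5 in endothelial cells. The compared mice were Atg5lox/lox without Cre (wild type, 6 arrays), so both groups carry the floxed alleles. All mice were put on a high fat diet at 8 weeks of age and sampled after 2 weeks of it. Atg5 is needed to form autophagosomes, and the study asked how its loss alters the LSEC transcriptome. The VE-cadherin promoter is also active in endothelium outside the liver and in precursors of blood cells. Whether each array is 1 mouse or a pool is not stated, so the spread between arrays may be in part technical.

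Endothelial identity rests on a small set of DNA-binding families that act on shared enhancers. ETS factors bind next to GATA, SOX and basic helix-loop-helix factors at the genes that make a cell endothelial. GATA4 is known as the factor that sets the sinusoidal programme in the liver and holds back the continuous type of endothelium, while c-MAF is enriched in sinusoidal cells. TBX20 is known best from heart development, where it acts with GATA4.

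Values are log2 intensities after the authors' RMA normalization, with array medians from 6.61 to 6.75. Precision is limited by how few arrays there are. No cluster passed an adjusted p of 0.05 in limma (0 of 22206, 0%), while 1419 had an unadjusted p of at most 0.05. The study's own rule asks for a change of 1.5-fold or more and an unadjusted p no higher than 0.05, and it was met by 228 clusters (1.03%). Atg5 read 7.48 to 7.90 in knockout arrays and 7.38 to 7.59 in wild type arrays. The position of its probes relative to the floxed part is not known here, so its level does not check the genotype. The endothelial part of the label was checked with Cdh5, which encodes VE-cadherin in all endothelium and read 12.36 to 12.69 in knockout arrays and 12.47 to 12.59 in wild type arrays. For the sinusoidal part, the mean of 15 LSEC markers such as Stab2 and Lyve1 was 11.65 ± 0.18 in knockout and 11.62 ± 0.13 in wild type arrays (SD, n = 5 and n = 6, exact permutation p = 0.779). Kupffer cell and macrophage markers averaged 8.89 ± 0.87 in knockout and 7.78 ± 0.50 in wild type arrays, with 17 of 17 higher and 13 meeting the study's rule (exact permutation p = 0.019, adjusted over 12 marker lists 0.117). Hepatocyte markers averaged 8.39 ± 0.65 in knockout and 9.28 ± 0.58 in wild type arrays, with 0 of 18 higher and 12 meeting the rule (exact permutation p = 0.045, adjusted 0.136). Erythroid markers ranged from 6.71 to 6.87 in knockout and 6.90 to 7.06 in wild type arrays without overlap, with 0 of 4 higher and 0 meeting the rule (exact permutation p = 0.0043, adjusted 0.052). B cell markers averaged 6.21 ± 0.09 in knockout and 6.33 ± 0.08 in wild type arrays (exact permutation p = 0.043, adjusted 0.136). Fewer cells of a type and less RNA per cell cannot be told apart in these bulk samples. The cholangiocyte, neutrophil, platelet and mast cell means also differed by -0.21, -0.13, -0.12 and -0.09 (knockout minus wild type). The T and NK cell mean, the dimmest, differed by 0.20. Over all clusters the median difference was -0.02, and 0.05 with dim clusters left out. The part of brightness in the lower means was not tested. The intron control probes, a sign of unspliced or genomic sequence, averaged 5.75 to 5.96 in 4 arrays (knockout 3 and 4, wild type 1 and 6) and 5.05 to 5.38 in the other 7. Genes of the Y chromosome read 8.02 to 8.51 in 3 arrays (knockout 3, wild type 3 and 6) and 3.42 to 3.79 in the other 8, so each group mixes arrays of both kinds.

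Of the 10 factors, only Tbx20 met the study's rule, beside 1.03% of all clusters, and since the choice of the factors used this contrast nothing is read from that count. The mean of Tbx20 was higher in knockout arrays, with overlapping groups. The other 9 differed by between -0.14 and 0.10 on the log2 scale, each with overlapping groups. Over all clusters, 0.473% had groups that did not overlap, and 0 of the 10 factors did. The median of the 10 differences was 0.01 (5 positive, 5 negative), beside a median of -0.02 over all clusters. All 10 read above the mean of the antigenomic background probes on all 11 arrays.

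**Figure D1:**
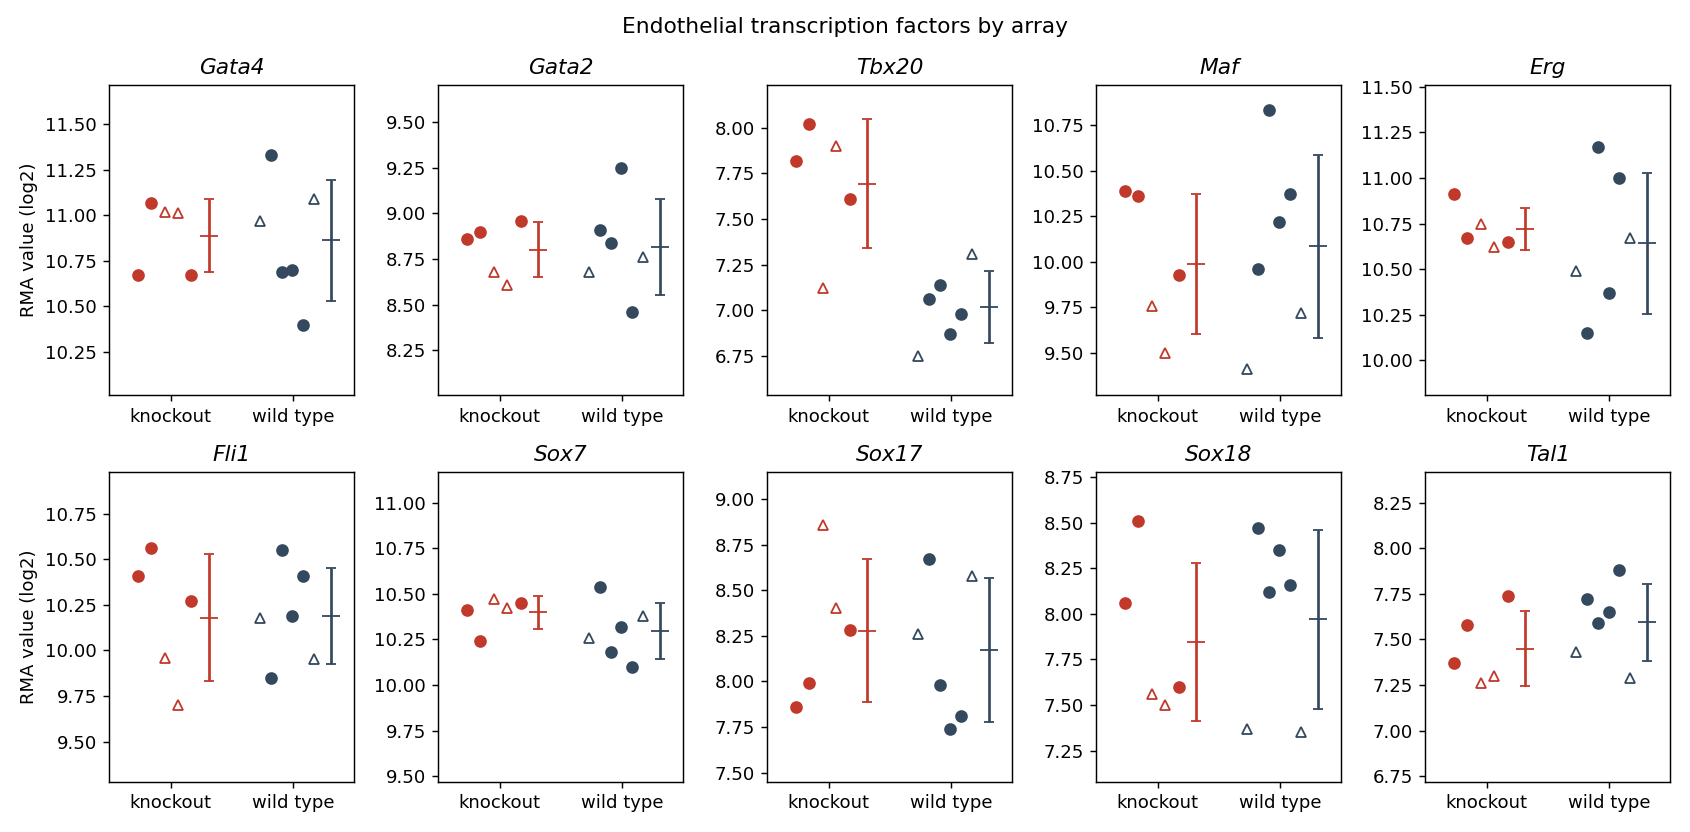
Log2 RMA intensity of each of the 10 factors in every array, with knockout (5 arrays) left of wild type (6 arrays) in each panel and the mean ± SD as a bar. Open triangles mark the 4 arrays of high intron control signal and filled circles the other 7. Every panel spans the same log2 range, so the heights of the spreads can be set against each other. In the Tbx20 panel 4 of 5 knockout arrays lie above every wild type array, and in the other panels the groups overlap.

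GATA4 and c-MAF come first, as the factors tied most closely to the sinusoidal type. Gata4 read 10.67, 11.07, 11.02, 11.01 and 10.67 in the knockout arrays, against 10.40 at the lowest, 10.84 at the median and 11.33 at the highest in wild type arrays. All 5 knockout values lay inside the wild type range. The difference was 0.02 (SE 0.16), a fold of 1.02, with means of 10.89 ± 0.20 in knockout and 10.86 ± 0.33 in wild type arrays (SD, n = 5 and n = 6).

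Maf read 10.39, 10.36, 9.76, 9.50 and 9.93 in the knockout arrays, against 9.41, 10.09 and 10.83 at the lowest, median and highest in wild type arrays. Its values covered 1.42 log2 units among the 11 arrays, the widest range of the 10 factors. Its spread within groups was at the 88.5 percentile of all clusters, next to Sox18 at 89.2. The genotypes differed by -0.10 (SE 0.24), well inside that spread. The 4 arrays of high intron control signal held its 4 lowest values, 9.41 to 9.76, and the other 7 arrays read 9.93 to 10.83.

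Tbx20 encodes a T-box factor that is required for heart chamber formation and is also found in endothelium. It read 7.82, 8.02, 7.12, 7.90 and 7.61 in the knockout arrays, against 6.75 at the lowest, 7.02 at the median and 7.31 at the highest in wild type arrays. Knockout array 3, at 7.12, lay within the wild type range, and the other 4 knockout arrays lay above all 6 wild type arrays. Means were 7.69 ± 0.35 in knockout and 7.02 ± 0.20 in wild type arrays (SD, n = 5 and n = 6), a difference of 0.68 (SE 0.16) and a fold of 1.60. It exceeded the antigenomic mean by at least 1.82 on every array, but on 0 of 11 arrays did it exceed the brightest antigenomic probe group, so the fold may be compressed.

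Tbx20's difference was lowest, 0.59, when knockout array 2 was left out and highest, 0.82, when knockout array 3 was, and the study's rule was met with each array left out in turn. These fits share most of their arrays and are no independent support. When the macrophage marker mean was added to the fit the Tbx20 difference was 0.49, with the stellate marker mean 0.51, both below the 1.5-fold line. With the hepatocyte mean alone the Tbx20 difference was 0.65 (SE 0.21) and met the rule. With the hepatocyte and macrophage means together as covariates it was -0.22 (SE 0.35). Both marker means themselves differed between the genotypes, as given above, and the SE of this fit was larger than the 0.16 of the fit without covariates. The stellate and mesenchymal markers averaged 8.74 ± 0.38 in knockout and 8.39 ± 0.37 in wild type arrays (exact permutation p = 0.175), and ranged from 8.19 to 9.22 in knockout and 7.92 to 8.92 in wild type arrays. Of these 12 markers 11 were higher in knockout arrays, 0 met the study's rule and 0 lay under the antigenomic mean on all arrays. Over all clusters 10205 of 22206 lay above 0 and 1.03% met the rule, so nothing is read from the 0 that met it. Knockout array 3 was also the only knockout array with Y-linked signal. In the 8 arrays without that signal Tbx20 read 7.61 to 8.02 in 4 knockout and 6.75 to 7.06 in 4 wild type arrays, with no overlap. This split was made after the values were seen. It leaves out knockout array 3 and the 2 highest wild type arrays, at 7.14 and 7.31, so nothing is read from the lack of overlap. The share of all clusters without overlap in this split was not computed.

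The only RefSeq window before a Tbx20 start is shown because this gene carries the difference. It covers 250 bases on the minus strand at chr9:24774304-24774553 of GRCm38.p6, with 68.8% G and C.
Tbx20: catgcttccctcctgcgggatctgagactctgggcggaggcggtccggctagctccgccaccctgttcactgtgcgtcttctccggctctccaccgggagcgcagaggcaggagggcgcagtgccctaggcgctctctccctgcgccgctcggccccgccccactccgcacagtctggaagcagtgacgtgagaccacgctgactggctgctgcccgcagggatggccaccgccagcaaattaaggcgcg
The words searched on both strands were those of GATA factors (AGATAA or AGATAG or TGATAA or TGATAG), ETS (AGGAAG or CGGAAG or AGGAAA), SOX (AACAAT or ACAAAG), E-box (CAGATG or CAGCTG), T-box (AGGTGTGA) and MAF (TGCTGA) proteins. None of these letters were found in this window. Over all 32851 windows of the same length, 26.5% held a GATA word, 54.4% an ETS word, 24.0% a SOX word, 25.5% an E-box word, 1.12% the T-box word and 16.1% the MAF word.

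The ETS pair, ERG and FLI1, binds enhancers of most endothelial genes. Erg read 10.91, 10.67, 10.75, 10.62 and 10.65 in the knockout arrays, against 10.15, 10.58 and 11.17 at the lowest, median and highest in wild type arrays. The knockout arrays sat close together in the middle of the wild type range, with SDs of 0.12 in knockout and 0.39 in wild type arrays. The means differed by 0.08 (SE 0.17). Fli1 read 10.41, 10.56, 9.96, 9.70 and 10.27 in the knockout arrays, against 9.85, 10.19 and 10.55 in wild type arrays. Here the knockout arrays spread at both ends of the wild type range, and the means differed by -0.01 (SE 0.17).

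Erg had 3 start sites with a RefSeq window, and the one at chr16:95459349-95459598, on the minus strand of GRCm38.p6, is shown because it held words of 4 of the families described here. It was picked after the search for that reason. Capitals mark a T-box word 220 bases before the start, a SOX word at 120, a GATA word at 103 and an ETS word at 40, all on the opposite strand.
Erg: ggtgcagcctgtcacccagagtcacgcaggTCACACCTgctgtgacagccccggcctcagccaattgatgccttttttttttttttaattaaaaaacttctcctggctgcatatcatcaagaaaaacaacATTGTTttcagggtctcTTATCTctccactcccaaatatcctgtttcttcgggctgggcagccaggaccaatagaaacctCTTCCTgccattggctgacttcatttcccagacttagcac
A match of letters is a description of the window and not a binding site.

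GATA2 and TAL1 act together in blood precursors and in endothelium, where both are bound near each other with LMO2 as a bridge. Gata2 read 8.86, 8.90, 8.68, 8.61 and 8.96 in the knockout arrays, against 8.46, 8.80 and 9.25 at the lowest, median and highest in wild type arrays. Its means differed by -0.01 (SE 0.14), and all knockout values lay inside the wild type range. Tal1 read 7.37, 7.58, 7.26, 7.30 and 7.74 in the knockout arrays, against 7.29, 7.62 and 7.88 in wild type arrays. Only 1 of 5 knockout arrays exceeded the wild type mean of 7.59 ± 0.21, and 1 lay below the lowest wild type array. The difference of -0.14 (SE 0.13) was the lowest of the 10 and smaller than the spread between arrays. The erythroid markers, from a lineage that also uses TAL1 and GATA factors, were lower in knockout arrays in these data as given above, and their part in the Tal1 values was not tested. Like Tbx20, Tal1 exceeded the brightest antigenomic probe group on 0 of 11 arrays.

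For Tal1 the upstream one of 2 RefSeq windows is shown, since a GATA word lies in it. This window was picked after the search for that reason, and 26.5% of all windows held a GATA word. The window lies on the plus strand at chr4:115056176-115056425 of GRCm38.p6. Capitals mark the GATA word, on the opposite strand 205 bases before the start, and a MAF word at 163.
Tal1: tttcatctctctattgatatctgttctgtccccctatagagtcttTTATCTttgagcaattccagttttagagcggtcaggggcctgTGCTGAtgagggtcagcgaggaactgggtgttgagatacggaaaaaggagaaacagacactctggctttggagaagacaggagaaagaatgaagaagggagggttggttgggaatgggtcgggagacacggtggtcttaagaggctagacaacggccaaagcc
Gata2 had 2 windows, and the words were found in neither. The remaining 6 factors are named without sequence.

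SOX7, SOX17 and SOX18 form the F group of SOX proteins, which act partly in place of each other in arterial and lymphatic development. Sox7 read 10.41, 10.24, 10.47, 10.42 and 10.45 in the knockout arrays, against 10.10, 10.29 and 10.54 at the lowest, median and highest in wild type arrays. It was the steadiest of the 10, with a range of 0.44 over 11 arrays and a spread within groups at the 6.24 percentile of all clusters. Its difference of 0.10 (SE 0.10) kept its sign with each array left out in turn, from 0.06 to 0.15.

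Sox17 and Sox18 were less steady. Sox17 read 7.86, 7.99, 8.86, 8.40 and 8.28 in the knockout arrays, against 7.74, 8.12 and 8.67 in wild type arrays, a difference of 0.10 (SE 0.21). Its highest knockout value, in array 3, lay above the wild type range, and without that array the difference was -0.04. Sox18 read 8.06, 8.51, 7.56, 7.50 and 7.60 in the knockout arrays, against 7.35, 8.14 and 8.47 in wild type arrays. Both groups held arrays at 7.60 or lower and arrays at 8.06 or higher, with none between. The difference was -0.12 (SE 0.25), and once the macrophage marker mean entered the fit it was -0.61, past the study's rule, while with the hepatocyte mean it turned to 0.22 (SE 0.28).

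**Figure D2:**
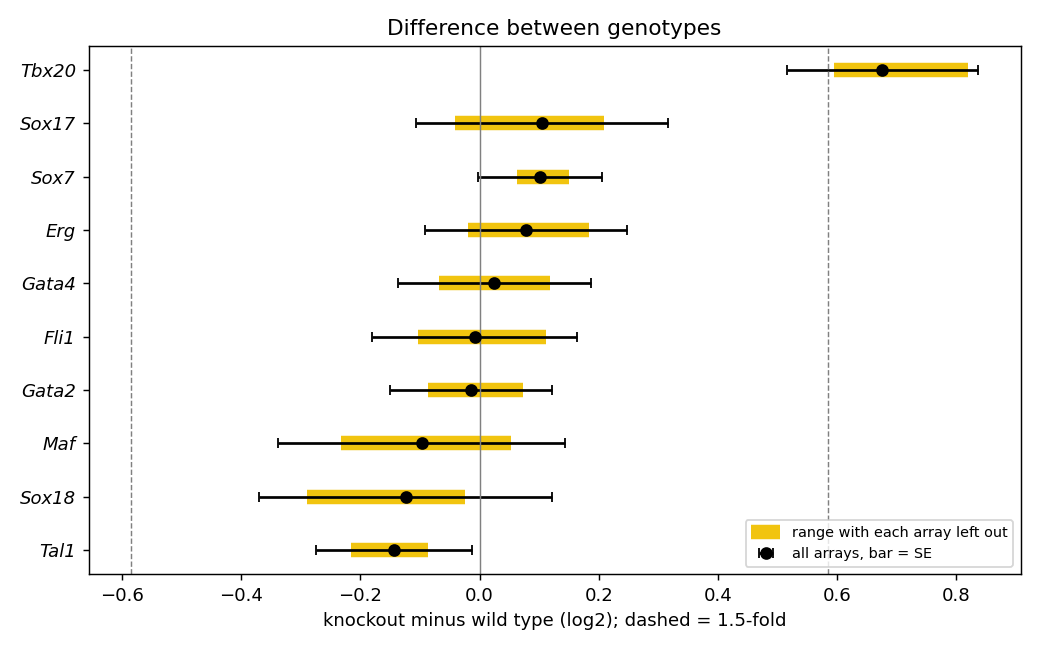
Log2 difference of the group means (knockout minus wild type) for each factor, with limma's standard error as a black bar and the range over the fits that leave out 1 array each in yellow. The dashed lines mark a fold of 1.5 either way. Tbx20 lies at 0.68, past the line in every fit shown, and the other 9 lie between -0.14 and 0.10.

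The spread of Sox18 went with the intron control signal. Sox18 read 7.35 to 7.56 in the 4 arrays of high signal and 7.60 to 8.51 in the other 7, with no overlap, as was also found for Maf. The share of all clusters that separate in this way was not computed, so it is not read as particular to Sox18 or Maf. The brightest antigenomic probe group also differed, at 7.90 to 8.31 in the 4 arrays and 8.26 to 8.78 in the other 7. Sox18 exceeded it on 1 of 11 arrays. Tal1 read 7.26 to 7.43 in the 4 arrays and 7.37 to 7.88 in the other 7. Sox17 lay towards the other end, at 8.26 to 8.86 in the 4 arrays and 7.74 to 8.67 in the other 7. Among the 7 arrays of lower signal alone, the correlation of the values with the intron control mean was -0.68 for Sox18, -0.41 for Tal1 and 0.21 for Maf. Each genotype held 2 of the 4 arrays. With these 4 left out Tbx20 differed by 0.80. They hold its lowest knockout value (7.12, array 3) and its highest and lowest wild type values (7.31, array 6, and 6.75, array 1). Nothing is therefore read from the larger difference. The part of the intron control signal in the spread was not tested further.

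**Figure D3:**
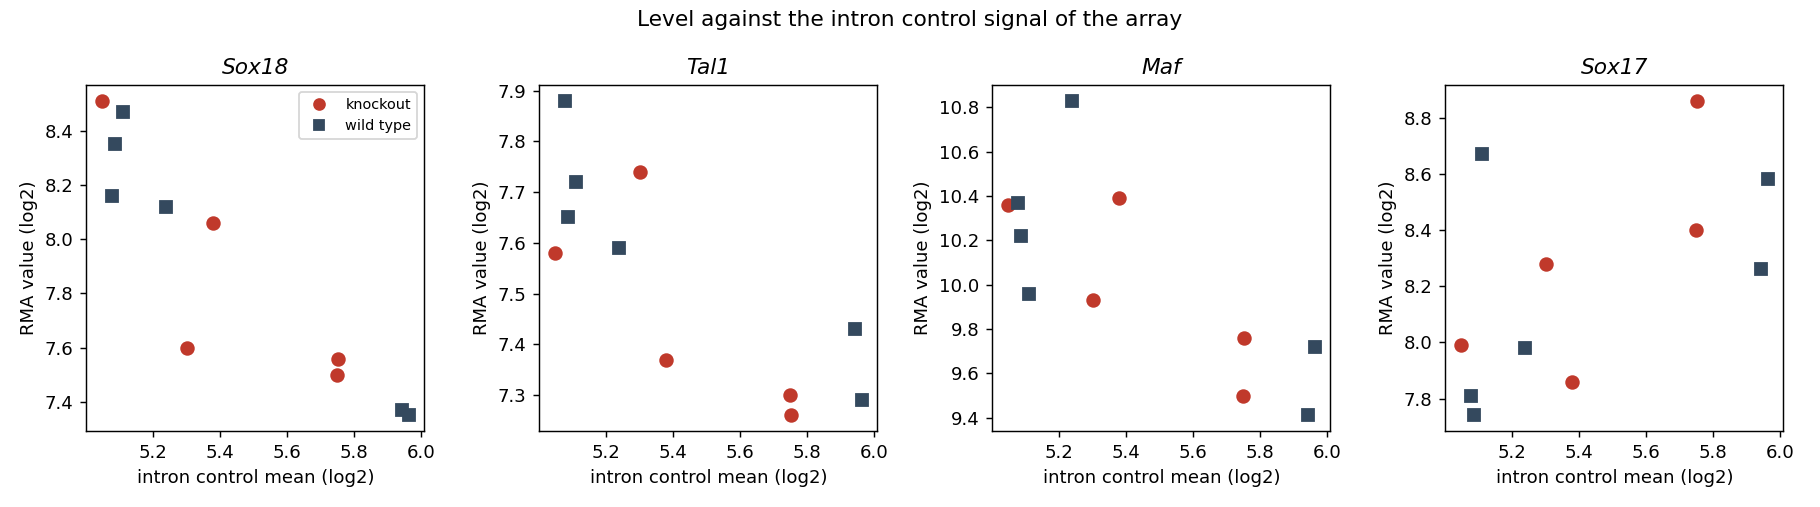
Log2 RMA intensity of Sox18, Tal1, Maf and Sox17 (vertical) against the mean of the intron control probes of the same array (horizontal, log2), with circles for knockout (5 arrays) and squares for wild type (6 arrays). The 4 arrays at the right, at 5.75 to 5.96, hold the lowest Sox18 and Maf values.

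How the factors varied together was examined after the group means were subtracted, so that the genotype difference played no part. Pearson's r and Spearman's rho were computed for 45 pairs over 11 arrays, with exact permutation of the pairing within groups. Raw p was at most 0.05 for 9 pairs and 0 passed adjustment over the 45. Because the 4 arrays of high intron control signal stood apart for some genes, r is also given over the other 7 arrays, where the smallest p that 144 pairings can give is 0.0069.

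Maf and Fli1 had the highest r over 11 arrays, 0.79 (exact permutation p = 0.0063, adjusted 0.142) and rho = 0.85 (p = 0.0029, adjusted 0.132). Without the 2 arrays farthest from the Maf median r was 0.93, and over the 7 arrays it was 0.90 (exact permutation p = 0.028, adjusted 0.417). Erg and Fli1 had r = 0.60 over 11 arrays (exact permutation p = 0.029, adjusted 0.184), 0.33 without the 2 farthest arrays and 0.87 over the 7. Maf and Erg had r = 0.59 over 11 arrays (exact permutation p = 0.103, adjusted 0.331), 0.34 without the 2 farthest arrays and 0.84 over the 7. Both relations of Erg thus rested in part on those arrays, and over 11 arrays several pairs without Erg had a higher r.

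Sox7 and Sox17 ran against these genes. Fli1 and Sox7 had r = -0.74 (exact permutation p = 0.0061, adjusted 0.142) and rho = -0.72 (p = 0.015), with -0.85 without the 2 farthest arrays and -0.94 over the 7. Fli1 and Sox17 had r = -0.75 (exact permutation p = 0.015, adjusted 0.176) and rho = -0.71, with -0.73 over the 7 arrays. Sox17 went with Sox7 (r = 0.69, exact permutation p = 0.026, adjusted 0.184) and with Gata4 (r = 0.74, exact permutation p = 0.016, adjusted 0.176), each at 0.74 over the 7 arrays. Sox18, the other F-group member, shared neither pattern, with r of -0.18 with Sox7 and -0.49 with Sox17. Over the 7 arrays Sox18 had r = 0.07 with Maf and -0.32 with Tal1, against 0.72 and 0.61 over all 11. These last relations did not hold within the 7 arrays. For Tbx20 the highest r over 11 arrays was 0.30, with Maf, and the lowest was -0.29, with Sox17.

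**Figure D4:**
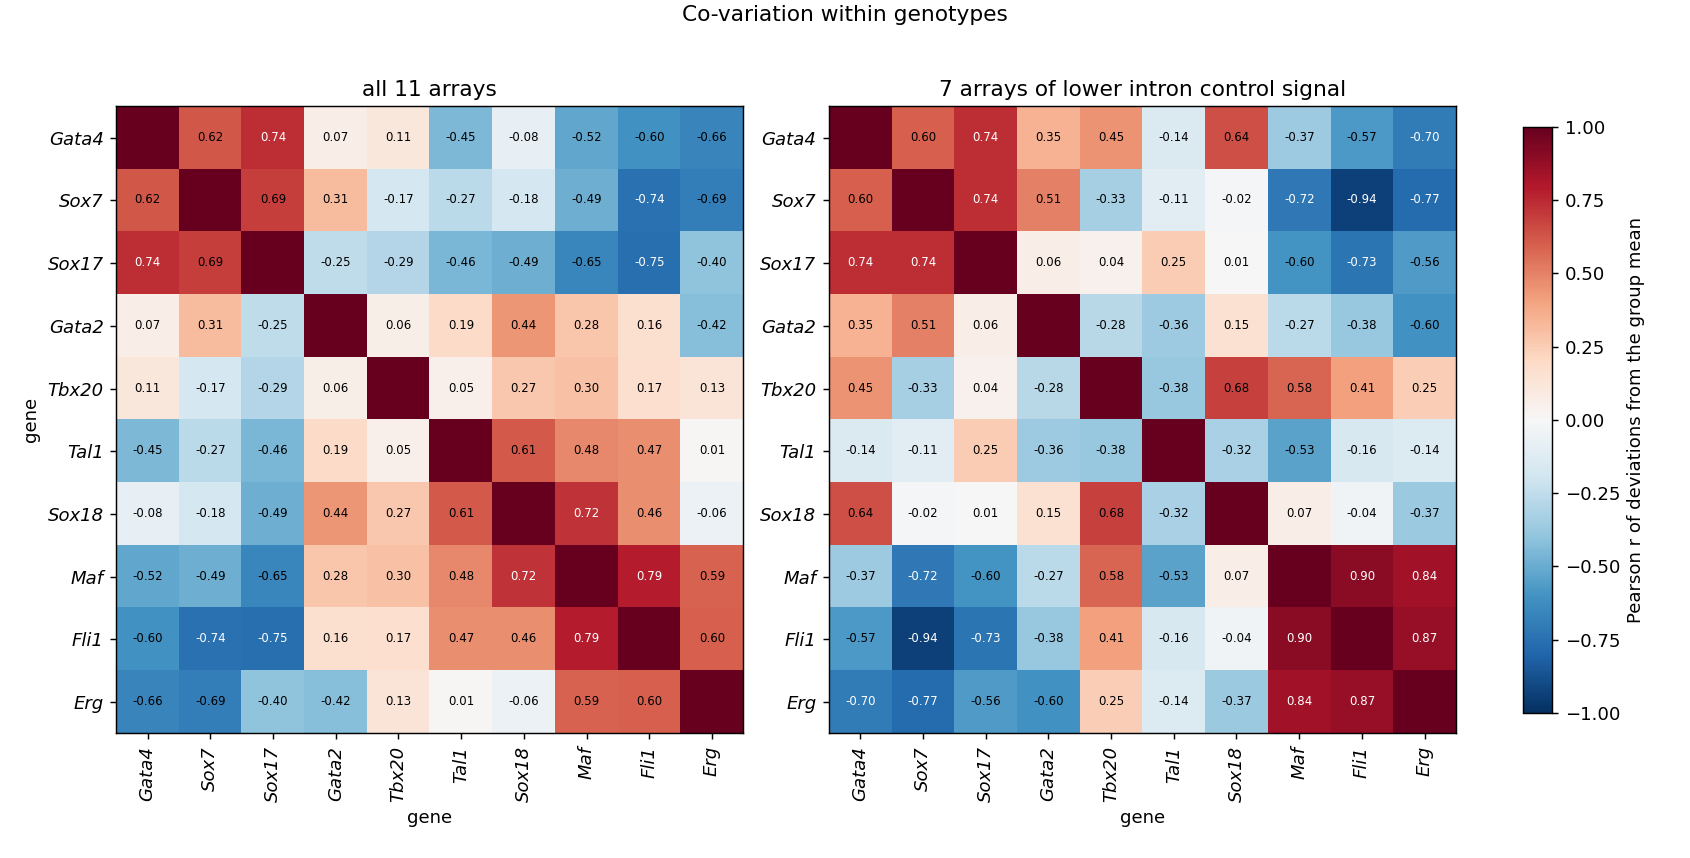
Pearson's r of the deviations from the group mean for every pair of the 10 factors, over all 11 arrays on the left and over the 7 arrays of lower intron control signal on the right. Red marks positive and blue negative values. Maf, Fli1 and Erg form a red block at the lower right of the 7-array panel (0.84 to 0.90), and their cells with Gata4, Sox7 and Sox17 are blue in both panels.

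The factors were also set against the means of 5 marker lists (50 pairs). After adjustment over the 50, 3 pairs passed by Pearson's r over 11 arrays and 0 by Spearman's rho. Maf and the LSEC marker mean had r = 0.88 (exact permutation p = 0.00034, adjusted 0.017) and rho = 0.90 (adjusted 0.051), with 0.78 without the 2 farthest arrays. Sox18 had r = 0.86 with the LSEC mean (adjusted p = 0.035, exact permutation) and 0.84 with the pan-endothelial mean (adjusted p = 0.035, exact permutation). Over the 7 arrays of lower intron control signal these were 0.61, 0.76 and 0.86, and no pair passed adjustment there (exact permutation, adjusted p = 0.849 for each of Maf with the LSEC mean and Sox18 with the pan-endothelial mean, 0.858 for Sox18 with the LSEC mean). Gata4 had r = 0.09 with the pan-endothelial mean. For Tbx20 none of the 5 lists passed adjustment. Over 11 arrays its r was 0.61 with the stellate mean (exact permutation p = 0.065, adjusted 0.217), 0.42 with the macrophage, 0.39 with the LSEC, 0.33 with the pan-endothelial and -0.07 with the hepatocyte mean. Over the 7 arrays the order differed, with 0.93 for the LSEC mean (exact permutation p = 0.035, adjusted 0.849), 0.84 for the pan-endothelial and 0.52 for the stellate mean. Without the 2 farthest arrays r was 0.39 with the stellate, 0.61 with the LSEC and -0.45 with the pan-endothelial mean.

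For each factor the clusters whose deviations were most like its own are named with r over 11 arrays, as the highest of all named clusters and so with no test. Maf was nearest to Gins4 (0.98), Extl2 (0.98) and Jkamp (0.97), and Sox18 to Ndufa10 (0.98), Il17rc (0.98) and Tpi1 (0.98). Erg was nearest to Nedd4 (0.98), Hmgb1 (0.97) and Pin4 (0.96), and Fli1 to Cd302 (0.96), Ocrl (0.95) and AW554918 (0.95). Sox17 was nearest to Fbxl21 (0.97), Dpf2 (0.96) and Speer1 (0.95), of which Speer1 exceeded the antigenomic mean on 6 of 11 arrays. For Sox7 the nearest were Ly6g5c (0.95), Mmd (0.93) and Unc93a2 (0.90), and for Tal1 they were Shc3 (0.95), Ces1b (0.95) and Pecr (0.95). For Gata4 they were Slc25a3 (0.94), Tyrp1 (0.94, above the antigenomic mean on 6 arrays) and Ctns (0.93), and for Gata2 they were Zfp560 (0.94), Btnl4 (0.93) and Fam110a (0.92). Tbx20 had the lowest such values, with Efcab5 (0.89, above the antigenomic mean on 2 arrays), Nf2 (0.88) and Snrnp35 (0.87).

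The wider network was described through 14 lists, whose union without the factors held 194 genes, 186 of them measured. The study's rule was met by 3 of the 186 (1.61%), all higher, beside 0.671% of all clusters called higher. They were Spic, Spi1 and Runx1, and 0 of the 186 passed the adjusted p in limma. An unadjusted p of at most 0.05 was found for 9 of the 186 (4.84%), beside 6.39% of all clusters. The median difference of the 186 was -0.01, beside -0.02 for all clusters.

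Other endothelial transcription factors (43 of 46 measured) had 0 called in either direction, beside 1.03% of all clusters. Their median was 0.04 with 30 above 0, beside 10205 of 22206 above 0 over all clusters. With dim clusters left out the median of the remaining clusters was 0.05. Sox4, a C-group SOX factor, had the smallest p of them, at 7.68 to 9.32 in knockout and 7.40 to 8.22 in wild type arrays (0.56, SE 0.26). Mef2d, a MADS-box factor, differed by 0.16 (SE 0.10), and the Hippo-pathway factors Tead4 and Tead1 by 0.18 (SE 0.12) and 0.22 (SE 0.17).

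The relatives of the 10 factors were described by family. Of the GATA family, Gata1, Gata6 and Gata5 differed by -0.12, -0.09 and -0.06, with 0 called. The T-box family (15 of 17 measured, 11 above the antigenomic mean on all arrays) had 0 called, beside 1.03% of all clusters, and a median of -0.06. Tbx21, the T-bet gene of lymphocytes, differed by -0.25 (SE 0.11), Tbx10 by -0.22 (SE 0.13), Tbx15 by -0.14 and Tbx22 by 0.16, and the last pair did not exceed the antigenomic mean on any array.

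Of 16 other SOX genes 13 lay below 0, with a median of -0.11 and 0 called, beside 1.03% of all clusters. Over all clusters 12001 of 22206 lay below 0. The median of all clusters was -0.02, and 0.05 with dim clusters left out. The part of brightness in the signs of the SOX genes was not tested. Sox9, a factor of bile duct cells, read 7.60 to 8.22 in knockout and 7.86 to 8.71 in wild type arrays (-0.48, SE 0.16). Sox11 differed by -0.35 (SE 0.15) and Sox10 by -0.25 (SE 0.10), with adjusted p = 0.765 in limma for all 3. Sox9 is also one of the cholangiocyte markers, whose mean of 5 was 6.47 ± 0.19 in knockout and 6.68 ± 0.22 in wild type arrays (SD, n = 5 and n = 6, exact permutation p = 0.119). Their part in the Sox9 values was not tested.

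The ETS family (23 of 24 measured) had 2 called higher, Spic and Spi1, beside 0.671% of all clusters called higher. They are factors of red pulp and Kupffer type macrophages and of the myeloid lineage. Spic read 8.99, 9.79, 8.40, 8.56 and 8.74 in the knockout arrays, against 6.93, 7.35 and 9.03 at the lowest, median and highest in wild type arrays. The difference was 1.34 (SE 0.36), a fold of 2.53, with adjusted p = 0.765 in limma. Spi1 read 11.69, 12.21, 10.42, 10.84 and 11.12 in the knockout arrays, against 9.88, 10.25 and 11.41 in wild type arrays, a difference of 0.80 (SE 0.33) and a fold of 1.74. For Spic only wild type array 5 reached the knockout range, and for Spi1 wild type arrays 4 and 5 did.

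The macrophage markers moved with Spic and Spi1, as their mean was 7.96 to 10.26 in knockout and 7.43 to 8.72 in wild type arrays, and 0 of the 17 markers lay under the antigenomic mean on all arrays. Spic is itself 1 of these 17. With the marker mean as a covariate Spic, Spi1 and Runx1 did not meet the rule, which for Spic is in part by construction. Elf4 differed by 0.38 (SE 0.13) and Elf5 by -0.26 (SE 0.11), and neither reached a fold of 1.5.

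Among 13 partners of GATA and TAL1 complexes only Runx1, the haematopoietic runt factor, met the rule, beside 1.03% of all clusters. Runx1 read 7.70 to 8.65 in knockout and 6.99 to 8.22 in wild type arrays, with a difference of 0.65 (SE 0.23) and a fold of 1.57. Ssbp2 (0.15, SE 0.13), Tcf12 (0.24, SE 0.21) and Lyl1 (0.16, SE 0.16) differed by less. The MAF family (5 of 6 measured) had a median of 0.05, with Maff at 0.20 (SE 0.21), Mafg at 0.12, Nrl at -0.06 and Mafk at 0.05. The TAL and LYL family of 4 had a median of -0.13, with Nhlh1 at -0.20 (SE 0.14), Nhlh2 at -0.12 and Tal2 at -0.13.

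Because Tbx20 acts with GATA4 in the heart, 12 cardiac partners and targets were examined. None was called, beside 1.03% of all clusters, and the median was -0.09. Myocd, the smooth muscle and heart coactivator, differed by -0.39 (SE 0.19) but exceeded the antigenomic mean on only 4 arrays. Casz1 differed by 0.23 (SE 0.12), Hand1 by -0.27 (SE 0.16) and the natriuretic peptide gene Nppb by -0.22 (SE 0.14).

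**Figure D5:**
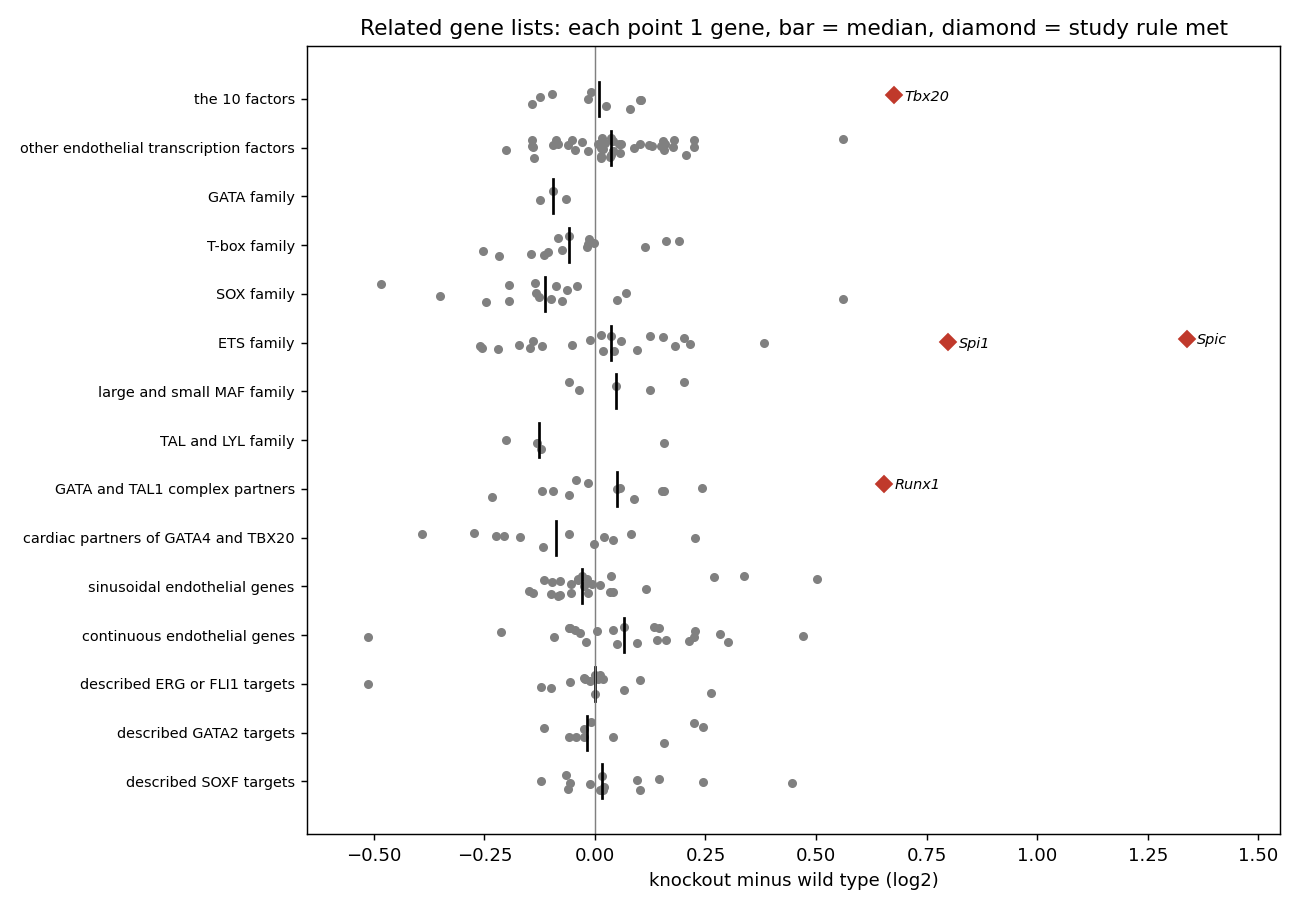
Log2 differences (knockout minus wild type) for every measured gene of the 10 factors and of the 14 lists, 1 point a gene, with the list median as a bar and diamonds for genes that met the study's rule. Diamonds stand for Tbx20 among the factors, Spic and Spi1 in the ETS family and Runx1 among the complex partners, and the medians lie between -0.13 and 0.07.

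Genes of sinusoidal and of continuous endothelium were counted next, and then genes described as targets of the factors. Of 25 sinusoidal endothelial genes, with the factor Maf among them, 0 were called, beside 1.03% of all clusters. At that share most lists of this size would hold none, so nothing is read from the count. The median was -0.03. Cd209b, a lectin, differed by 0.34 (SE 0.19), the hyaluronan receptor gene Lyve1 by 0.27 (SE 0.18), the ficolin gene Fcna by 0.50 (SE 0.36) and Wnt9b, a ligand of liver zonation, by -0.14 (SE 0.14). Of 23 measured continuous endothelial genes 0 were called, beside the same share of all clusters, with a median of 0.07. Vwf, the gene of von Willebrand factor, read 7.10 to 7.70 in knockout and 6.85 to 9.10 in wild type arrays (-0.51, SE 0.35). Lama4 differed by 0.16 (SE 0.13), Cav1 by -0.21 (SE 0.18) and Cxcl12 by 0.28 (SE 0.27).

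Among 15 measured genes described as ERG or FLI1 targets 0 were called and the median was 0.00. The share of all clusters called was 1.03%, so nothing is read from a count of 0 in this list or the next ones. Besides Vwf, the genes of smallest p were Fzd4 (0.26, SE 0.25), Hdac6 (-0.10, SE 0.12) and Robo4 (-0.12, SE 0.26). Of 10 genes described as GATA2 targets, with the factor Fli1 among them, 0 were called, with a median of -0.02. The adhesion receptor gene Vcam1 differed by 0.25 (SE 0.17), Edn1 by 0.22 (SE 0.23) and Kdr by -0.12 (SE 0.12). Of 14 genes described as targets of the SOX F group 0 were called, with a median of 0.02, and the chemokine receptor gene Cxcr4 differed by 0.45 (SE 0.27), Unc5b by 0.15 (SE 0.17) and Efnb2 by 0.10 (SE 0.19). In these target lists and the sinusoidal and continuous lists every named gene had overlapping groups.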

How the data were processed

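RNA of LSEC from 5 knockout and 6 wild type samples was measured on Mouse Clariom S arrays. Per the labels' protocols, biotinylated cDNA was made from 100 ng total RNA. The authors normalized with RMA in Affymetrix Expression Console, per the submitters' processing notes. RMA corrects background, equalizes distributions between arrays and summarizes probes, which takes out any shift shared by most genes and flattens differences near background. The deposited values run from 2.15 to 13.79, which shows a log2 scale. Scanner files were not used here. For the cell isolation and the genome build, details are not given in the sources used here.

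Control rows (6640 of 28846) were left out, and 22206 clusters were compared by genotype alone using lmFit and eBayes of limma (version 3.58.1, with R 4.3.3), adjusted by Benjamini-Hochberg over all clusters. The study names no test for its rule, so this fit served for it. The platform annotation gave 1 symbol to 19572 clusters and none to 2634. Group means of marker lists were compared over all 462 splits (exact permutation, two-sided), and correlations by two-sided exact permutation of the pairing within groups (86400 pairings). The correlation test and the limma fit were tried on simulated data, and the test over splits was not. The members and lists were chosen with earlier results of these data known. Genes named were the 10 factors, Atg5, Cdh5, up to 4 genes of each list with the smallest p, the 3 nearest clusters of each factor, and list genes past the study's rule. The nearest clusters leave out predicted genes, olfactory and vomeronasal receptors and genes linked to sex. Promoter windows are RefSeq's for GRCm38.p6 (4 of 10 factors, 8 windows), cut to the 250 bases before the start. Of the overlapping windows on opposite strands, 1813 of 1813 were reverse complements. Replicate numbers were treated as names. Alternatives were marker means as covariates, omission of each array, array weights, centring on the median, a second quantile normalization, the replicate number as a block, another variance model, a filter on dim clusters and other thresholds.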

Additional observations from a re-analysis of the deposited data

Results flagged for a closer look

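Dixon's test was run on 50 groups of arrays, of which chance flags about 1 in 20. Sox7 in knockout array 2 read 10.24, below the other 4 knockout arrays at 10.41 to 10.47. Atg5 in knockout array 4 read 7.90, above the other 4 knockout arrays at 7.48 to 7.57.

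Tbx20 differed between genotypes in opposite directions in arrays with and without Y-linked signal, a split made after the values were seen. With that signal the knockout array read 7.12 and the 2 wild type arrays 7.14 and 7.31, a difference of -0.10. Without it the difference was 0.92 over 4 knockout and 4 wild type arrays. The interaction was -1.03 (SE 0.27), with adjusted p = 1 over all clusters in limma, and it rests on 1 knockout array.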

How the results depend on the processing

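Each count and difference was recomputed under alternatives. No cluster passed the adjusted p in the reported fit. Leaving out 1 array each gave 0 to 1 clusters, the hepatocyte mean as a covariate 30 and the macrophage mean 25. The study's rule was met by 228 clusters in the reported fit and by 171 to 314 with 1 array left out. It was met by 579 with the hepatocyte mean as a covariate, 1682 with the macrophage mean, 880 with both, 399 with the stellate mean, 150 without dim clusters, 359 without the 4 arrays of high intron control signal, and 1247 at a fold of 1.2.

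Among the 10 factors the count was 1 with each array left out (1 to 1), and 0 with array weights, with both marker means and with the stellate mean. With the macrophage mean the 1 factor called was Sox18, not Tbx20. Tbx20 was above 0 in 23 of 24 alternatives and met the rule in 20. These fits reuse the arrays on which Tbx20 was chosen, so the tally is a description and not support. The Tbx20 difference was 0.58 with array weights, 0.65 with the hepatocyte mean, 0.49 with the macrophage mean and 0.51 with the stellate mean. With the hepatocyte and macrophage means together it turned to -0.22 (SE 0.35). Leaving out arrays turned the sign of Gata4, Gata2, Maf, Erg, Fli1 and Sox17, and not of Sox7, Sox18 and Tal1. The hepatocyte mean as a covariate turned the sign of Gata4 (-0.13), Maf (0.17), Fli1 (0.27), Sox7 (-0.04), Sox17 (-0.23) and Sox18 (0.22). The 3 listed genes became 5 with the hepatocyte mean, 9 with the macrophage mean, 11 with both, 6 without the 4 arrays, and 1 to 5 with 1 array left out. Without wild type array 1 Spic alone met the rule. Without wild type array 5 the 5 genes were Spic, Spi1, Runx1, Sox4 and Esm1. The cause of these changes was not tested.

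Deviations of same-numbered arrays had r between -0.32 and 0.39, with 1 of 5 over 0.1. No reference was computed for these r, so they cannot tell whether the numbers pair the samples. With a replicate block 250 clusters met the rule, Tbx20 differed by 0.73, and 3 listed genes were called, of which 2 were among those of the reported fit. Averaging a symbol's clusters changes nothing, since each factor had 1. The stellate, intron and Y-linked covariates and the omission of the 4 arrays were chosen after seeing the data. Tbx20 and Tal1 read below the brightest antigenomic probe group on every array, which limits how well their folds are measured. Sox18 exceeded that group on 1 of 11 arrays and Sox17 on 4, so the limit also bears on their differences and correlations.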
